A study of Saccharomyces cerevisiae with 36 samples.

Results

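The comparison sets RNA from the polysome region of a sucrose gradient against total RNA in wild-type Saccharomyces cerevisiae cells starved of amino acids for 30 min. It holds 4 of the 36 arrays of the series, 2 of polysome RNA and 2 of total RNA, chosen by their labels alone and not by any measured value. The series also holds non-polysome RNA, cells kept in medium with amino acids (fed), and strains deleted for msn5 or mtr10, in 18 groups of 2 arrays labelled as biological replicates. The wild-type strain was BY4742, a haploid laboratory strain that needs histidine, leucine, lysine and uracil from its medium. The starved msn5 and mtr10 deletion strains lack carriers of the nuclear pore route that tRNA takes, and they were starved in the same way. Cultures in early log phase (OD600 0.35, synthetic medium, 30 °C) were divided, moved for 30 min into medium with or without amino acids, and given cycloheximide at 100 µg/ml before harvest. The polysome group is the polyribosome region of gradients of 10% to 50% sucrose, pooled before extraction. How the total RNA was extracted is not given in the sources used here.

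Ribosomes that translate a message follow each other along it, and cycloheximide holds them in place, so a heavily translated message sediments with polysomes. Amino acid starvation activates the kinase Gcn2, which lowers initiation on most messages and at the same time raises translation of the message for the activator Gcn4. A message that is stored, blocked, confined to the nucleus or loaded with a single ribosome is found in the total RNA but is scarce in the polysome pool. Every array here was scaled to the same distribution of signals, so a difference compares the rank of a message among those of its pool, and an overall loss of polysomes on starvation cannot be seen. Fewer cells carrying a message and less of it per cell cannot be told apart in RNA from whole cultures.

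Levels are given as log2 signal on the RMA scale, and differences as polysome minus total RNA on the log2 scale, ± the standard error of the fit unless an SD is named. A gene was called when its p, adjusted over 5338 genes, was under 0.05. Calls numbered 757 genes higher in polysome RNA (14.2% of all) and 490 lower (9.18%). The lower side reached much further: 124 genes were called and lower by 2-fold or more (2.32%), and 3 were higher by 2-fold or more (0.0562%). Differences ran from -5.28 to 1.11, with a median of 0.05 over all genes. The split of calls depended on the scaling: after cyclic loess the median difference was 0.01 and 495 genes were called higher and 592 lower, and with each array centred on its median 591 were higher and 556 lower. The count of genes lower by 2-fold or more was 117 and 131 under these scalings. Leaving out the second total RNA array left 277 genes higher and 267 lower, with 96 lower by 2-fold or more. Where a fit uses only these 4 arrays, without the spread of the other groups, 8 genes were called higher and 80 lower, 56 of the latter by 2-fold or more.

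**Figure D1:**
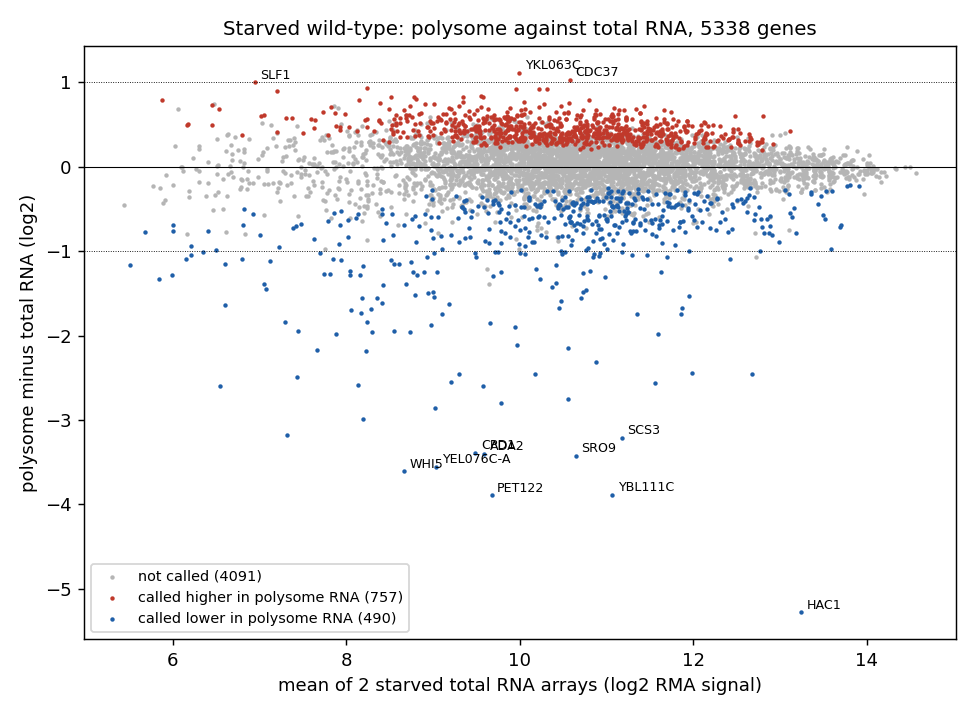
Each point is 1 of 5338 genes, with its mean level on the 2 starved total RNA arrays (log2 RMA signal) against its polysome minus total RNA difference (log2). The 490 genes called lower reach down to -5.28, whereas the 757 called higher lie at or below 1.11; dotted lines mark 2-fold.

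The handling of the pools differed as well as their RNA. Bacterial Lys and Phe control transcripts, which are added to RNA before labelling, averaged 8.82 to 10.83 on the 12 polysome arrays of the series and 12.66 to 13.18 on the 12 non-polysome arrays, but 3.63 to 3.98 on the 12 total RNA arrays. The kind of RNA and the way it was handled therefore cannot be told apart in any polysome minus total RNA difference. The 25S ribosomal RNA control read 9.60 and 8.82 on the starved polysome arrays and 14.30 and 14.33 on the total RNA arrays. Signal of the 3′ end over the 5′ end moved both ways between the pools, from 0.58 lower for SRB4 (a difference of -0.58) to 0.37 higher for RIP1 in polysome RNA. The correlation across genes of the replicate arrays was 0.99 for polysome RNA and 0.98 for total RNA. BY4742 is a MATalpha strain, and its 4 MATalpha markers read 11.82 to 13.27 in polysome RNA. The 6 MATa markers, which MATalpha cells keep silent, read 11.07 to 13.46 in polysome RNA and 11.16 to 13.48 in total RNA. In polysome RNA all 6 lay above the medians of all genes (10.73 and 10.72). The markers therefore did not bear out the MATalpha type, and the cause was not tested.

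HAC1 stood furthest from its total RNA level. HAC1 encodes the transcription factor of the unfolded protein response, and its unspliced message carries an intron that base-pairs with the leader and blocks translation. It read 8.61 and 7.31 on the polysome arrays, 13.35 and 13.13 on the total RNA arrays, and 13.32 and 13.62 on the non-polysome arrays. The polysome arrays lay far below all 4 others, and the non-polysome arrays lay near the total RNA arrays. The difference was -5.28 ± 0.71, a fold of 38.9 (adjusted p = 3.56e-05, limma). In fed cells HAC1 read 9.99 and 11.73 on polysomes against 12.86 and 12.59 in total RNA, a difference of -1.86 that did not pass the test (adjusted p = 0.091).

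HAC1 was 1 of 18 measured messages listed for upstream reading frames or a translation-blocking intron, with a median of -0.02. Of these 0 were called higher and 2, HAC1 among them, lower (11.1%, against 9.18% of all genes). The other was DCD1, which encodes dCMP deaminase, at 9.76 and 9.85 on polysomes and 10.11 and 10.39 in total RNA, a difference of -0.44 ± 0.11. GCN4, whose upstream frames hold back translation in fed cells in the textbook account, was abundant in both pools. It read 13.52 and 13.48 on the polysome arrays and 13.49 and 13.45 on the total RNA arrays. The GCN4 difference was 0.03 ± 0.10 (adjusted p = 0.866), and in fed cells it was -0.15. The starved minus fed difference for GCN4 was 0.18 ± 0.14 (adjusted p = 0.60), so with 2 arrays a group no difference was detectable, either between the pools or between the conditions. CPA1, a carbamoyl phosphate synthetase subunit whose upstream peptide stalls ribosomes when arginine is plentiful, read 13.55 and 13.71 on polysomes and 13.70 and 13.57 in total RNA, with overlapping arrays. The DCD1 call was lost without the second total RNA array (-0.30). YAP1 (0.27) and DAL82 (-0.31) did not pass the test.

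SRO9 encodes a La-motif RNA-binding protein found with translating ribosomes, and its own message read 7.25 and 7.19 on polysomes against 10.50 and 10.79 in total RNA. The SRO9 difference was -3.43 ± 0.33, a fold of 10.8 (adjusted p = 7.02e-07). On the non-polysome arrays SRO9 read 9.66 and 10.97, on either side of the total RNA arrays. SLF1, which encodes a related La-motif protein, went the other way: it read 7.61 and 8.28 on polysomes and 6.83 and 7.05 in total RNA, a difference of 1.00 ± 0.19 (adjusted p = 0.000666). Both genes were separated between pools with no overlap, as the choice of these genes required, and in opposite directions. Without the second polysome array the SLF1 difference was 0.67, still called.

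CPD1 encodes the phosphodiesterase that opens a cyclic by-product of tRNA splicing. It read 5.96 and 6.23 on polysomes and 9.50 and 9.47 in total RNA, a difference of -3.39 ± 0.22 with the smallest adjusted p of the 15 lowest genes (1.43e-09). On the non-polysome arrays CPD1 was also low, at 6.56 and 7.29. RPR2, a protein subunit of the nuclear RNase P that trims tRNA precursors, read 5.64 and 4.77 on polysomes against 8.06 and 8.32 in total RNA, a fold of 7.94. DHH1, a helicase of messenger RNA decay, and EDC1, which helps decapping, read 9.56 and 8.43, and 5.94 and 5.03, on polysomes. Their total RNA levels were 11.72 and 11.39 for DHH1 and 8.01 and 7.31 for EDC1. The differences were -2.57 ± 0.47 and -2.17 ± 0.40. DHH1 was about as low in non-polysome RNA relative to total (-2.16) as on polysomes, whereas EDC1 was higher there (0.97).

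WHI5, the repressor that holds cells in G1, read 5.49 and 4.61 on polysomes against 8.85 and 8.47 in total RNA, a difference of -3.61 ± 0.55. SWI4, a subunit of the G1/S activator that Whi5 inhibits, read 6.97 and 7.09 on polysomes against 8.64 and 8.21 in total RNA, a difference of -1.40 ± 0.16. On polysomes both messages lay below their total RNA arrays. The choice of WHI5 required this, and SWI4 was named for its small p in this same comparison, so neither separation is independent of the choice. ADA2, a subunit of the SAGA coactivator, read 6.92 and 5.47 on polysomes, 9.79 and 9.39 in total RNA, and 11.07 and 10.17 in non-polysome RNA. It was above its total level outside polysomes (1.03) and below it on them (-3.40 ± 0.34). SPT5, an elongation factor of RNA polymerase II, read 8.43 and 7.17 on polysomes and 8.08 and 8.53 in non-polysome RNA, both pools far below its 10.49 and 10.61 in total RNA.

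PET122, which encodes an activator of translation inside mitochondria, read 5.96 and 5.59 on polysomes and 9.72 and 9.62 in total RNA. It was not called Present on either polysome array by the detection p-values. The fold of 14.9 is the plain estimate (a difference of -3.89 ± 0.48) from these uncertain polysome signals, not a lower bound. SCS3, an endoplasmic reticulum protein of lipid metabolism, read 8.38 and 7.56 on polysomes, 11.23 and 11.12 in total RNA and 11.63 and 11.38 in non-polysome RNA. YPK2, a protein kinase, ENT4, a protein with an epsin-like domain, and ATG15, the lipase that opens autophagic bodies in the vacuole, were lower by folds of 6.94, 7.29 and 6.07. The ATG15 call was lost without the second polysome array. YKR041W read 4.34 and 3.93 on polysomes against 7.29 and 7.34 in total RNA. These polysome signals were close to the lowest of the genes Present on both polysome arrays (4.21 and 3.69).

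YBL111C and YEL076C-A, at -3.89 ± 0.69 and -3.55 ± 0.50, belong to repeated subtelomeric sequence and their probe sets match several transcripts, so that their signals cannot be assigned to a single locus. Such probe sets made up 12 of the 124 genes lower by 2-fold or more, against 110 of all 5338 genes. Genes without a standard name made up 27 of the 124 (21.8%), against 8.13% of all genes. On the fed total RNA arrays, which are not part of the starved difference, the 124 genes had median levels of 9.05 and 9.01, against 10.70 and 10.71 for all genes. After removal of the genes with the lowest mean, a share of 0.25 of all, 35 genes were called lower by 2-fold or more; that mean includes the polysome arrays, on which these genes are low.

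**Figure D2:**
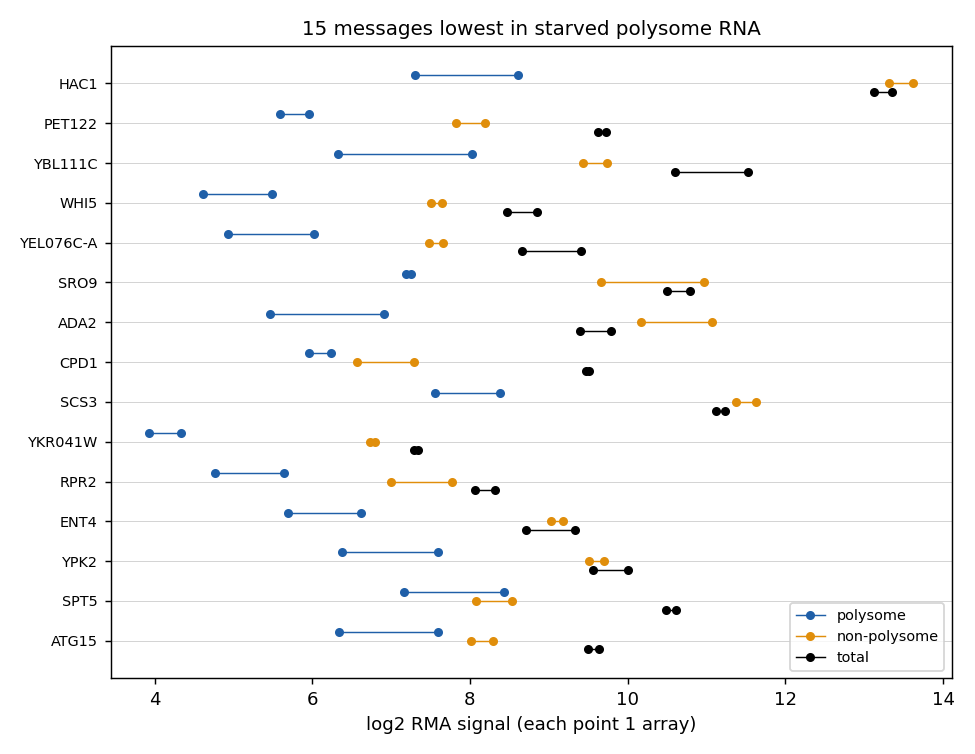
Each point is 1 array of starved wild-type RNA for the 15 genes with the largest called decrease in polysome RNA, in log2 RMA signal, and a line joins the 2 arrays of a pool. Polysome arrays lie below the total RNA arrays for every gene shown, as the choice of these genes required. Non-polysome arrays lie near the total for genes such as HAC1 and YPK2 and near the polysome level for genes such as SPT5.

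The 2 polysome arrays did not carry these messages to the same extent. Of the 124 genes, 107 were higher on the first polysome array than on the second, against 55.5% of all genes. Their median level was 7.73 on the first and 7.23 on the second, beside 9.26 and 9.32 in total RNA. The 25S ribosomal RNA control was also higher on the first polysome array (9.60 against 8.82). In fed cells the same genes had medians of 8.37 and 8.82 on the polysome arrays, where the control read 11.003 and 12.778, and 111 of the 124 were higher on the second array. The starved msn5 arrays also had the higher median where the control was higher (7.28 and 8.69, control 8.57 and 9.18). So did the fed msn5 arrays (8.51 and 8.34, control 11.96 and 11.14). In starved mtr10 cells the order was opposite (7.30 and 7.44, control 9.46 and 8.51). It was opposite in fed mtr10 cells too (8.17 and 8.46, control 11.76 and 11.38). The part of non-polysome RNA carried into the polysome pool in these differences was not tested. Without the first polysome array 157 genes were lower by 2-fold or more, and without the second 91.

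On the higher side the differences were small and the named genes came from many processes. YKL063C had the largest difference: it read 10.95 and 11.26 on polysomes against 10.19 and 9.80 in total RNA, 1.11 ± 0.14 (adjusted p = 2.32e-05). CDC37, the co-chaperone that brings protein kinases to Hsp90, read 11.66 and 11.55 on polysomes and 10.70 and 10.46 in total RNA, a fold of 2.04 (adjusted p = 4.81e-06). With SLF1 these were the 3 genes at 2-fold or more. CYC7, the minor isoform of cytochrome c, read 11.02 and 10.74 on polysomes and 10.33 and 9.57 in total RNA, and its 2 total RNA arrays differed almost as much as the pools did. The CYC7 difference was 0.93 ± 0.24 (adjusted p = 0.0082), and its call was lost without the first polysome array (0.78) or the second total RNA array (0.55).

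The other 11 genes with the largest increases ranged from 0.79 to 0.93. They included SUB1, a transcription coactivator (0.92 ± 0.11), RTR1, a phosphatase of the RNA polymerase II tail (0.84 ± 0.12), CUR1, a sorting factor of misfolded proteins (0.83 ± 0.14), LTO1, which acts in the maturation of an iron-sulfur protein of ribosome recycling (0.83 ± 0.13), and VPS41, a tether of vacuole fusion (0.83 ± 0.18). HSK3 and SLK19 of the kinetochore and spindle (0.93 and 0.79) and ORC6 of the origin recognition complex (0.80) were also called. The HSK3 call was lost without the second polysome or the second total RNA array (0.85 and 0.715), and that of SLK19 without the second polysome array (0.61). The remaining 3 were PSP1, PCI8 and SGM1. CUR1 was higher in non-polysome RNA too (1.20 relative to total), so that both gradient pools lay above the total for this message.

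Among gene lists, those of the respiratory chain and the proteasome had the largest shares of higher messages. Of 39 measured genes of the respiratory chain and ATP synthase 17 rose and 0 fell (43.6%, against 14.2% of all genes), with a median of 0.39 against 0.05. ATP7, a stalk subunit of ATP synthase, read 12.21 and 12.23 on polysomes and 11.68 and 11.64 in total RNA, a difference of 0.56 ± 0.09. ATP16 (0.48), QCR8 of complex III (0.52) and CYC1, the main cytochrome c (0.50), also rose. With only the 4 arrays of the comparison in the fit, ATP7, ATP16, QCR8 and CYC1 were not called. In fed cells the list had 16 genes higher and 0 lower, where 4.93% and 7.62% of all genes were, with a median of 0.35, on arrays not shared with the starved comparison. After cyclic loess 14 of the 39 were called higher, and with 1 array left out 7 to 14.

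Of 37 proteasome genes 15 rose and 0 fell (40.5% higher, against 14.2% of all genes), with a median of 0.22. RPN8, a subunit of the regulatory particle, read 12.30 and 12.36 on polysomes and 11.78 and 11.75 in total RNA, a difference of 0.57 ± 0.12. SEM1 (0.76), PRE1 (0.49) and SCL1 (0.36) rose as well. RPN8, SEM1, PRE1 and SCL1 were not called with only the arrays of the comparison in the fit. Among 37 cytosolic chaperone genes 9 rose and 1 fell (24.3% and 2.70%), led by the Hsp90 partners CDC37, CPR7 (0.77), SBA1 (0.49) and CPR6 (0.46). After cyclic loess 5 chaperone genes were higher and 2 lower, and with 1 array left out 4 to 6 were higher. With 1 array left out the proteasome list kept 6 to 11 genes called higher.

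Lists of the cytoskeleton, signalling and membrane traffic are read against the 14.2% of all genes called higher and 9.18% called lower. Of 40 actin and septin genes 15 rose and 3 fell (37.5% higher), among the former the septins CDC11 (0.57) and CDC3 (0.59) and the endocytosis factor END3 (0.58). Of 65 protein kinase genes 17 rose and 3 fell (26.2% and 4.62%). They included SNF4, the activating subunit of the energy-sensing kinase Snf1 (0.51 ± 0.07), and the casein kinases YCK1 (0.49) and HRR25 (0.44), beside the strongly lower YPK2. Of 44 genes of vesicle coats and transport 11 rose and 0 fell, with YPT1, a GTPase of early secretion, at 0.39 ± 0.06, SEC2 at 0.44 and RET2 of the coatomer at 0.39. After cyclic loess the counts higher and lower were 11 and 4 for actin and septin genes, 9 and 3 for kinases and 9 and 1 for vesicle transport. With 1 array left out 6 to 12 actin and septin genes, 5 to 17 kinase genes and 6 to 8 vesicle transport genes were called higher. Of 44 nuclear pore and importin genes 10 rose and 1 fell (22.7% and 2.27%): NUP159, NSP1 and NUP2 rose (0.63, 0.46 and 0.45), and NUP1 fell (-0.66). After cyclic loess 5 nuclear pore and importin genes were higher and 2 lower, and with 1 array left out 5 to 6 were higher. The NUP159 call was lost without the second total RNA array (0.40).

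**Figure D3:**
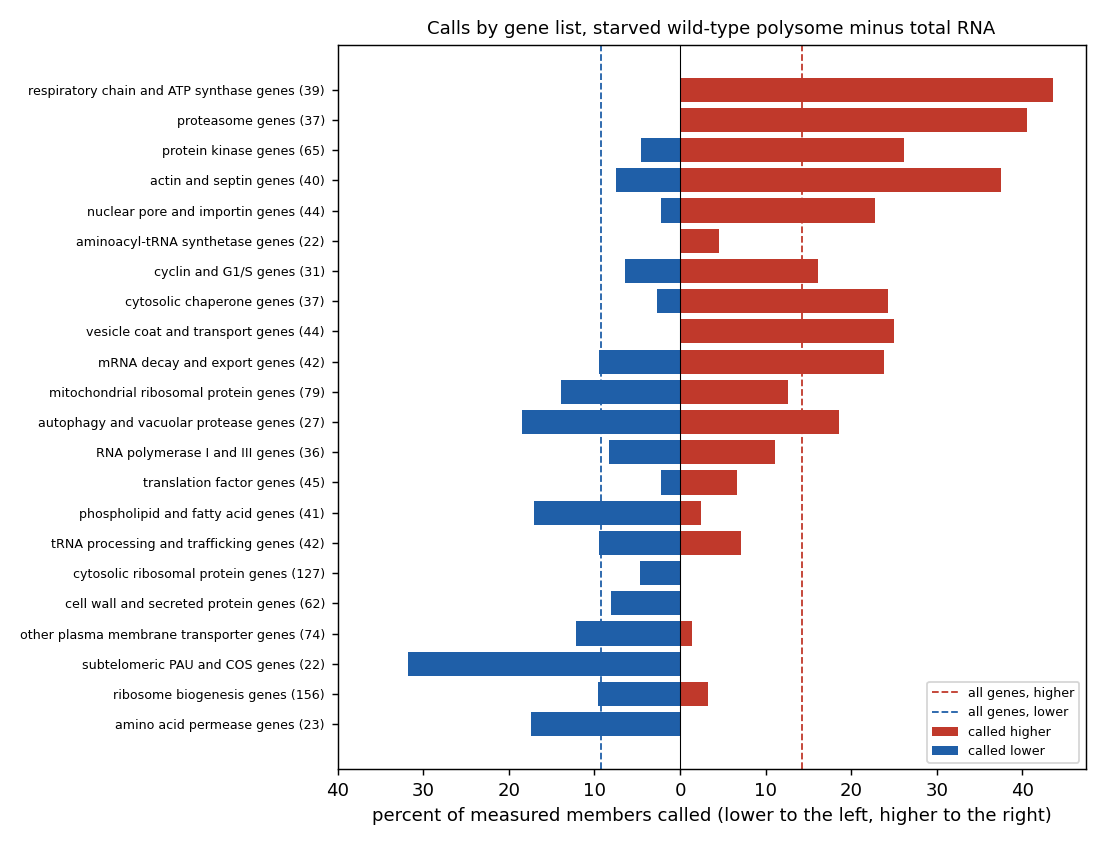
Bars give the percent of measured members (number in brackets) called higher (right) or lower (left) in starved polysome RNA for the described lists with at least 20 members, ordered by their median difference. Dashed lines mark the shares over all genes, 14.2% higher and 9.18% lower; the respiratory chain list reaches 43.6% higher.

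Of 156 ribosome biogenesis genes 5 rose and 15 fell (9.62%, close to the 9.18% of all genes), but the median was -0.21 and 112 of the 156 values were below 0. NOP58, a core protein of the box C/D particles that modify ribosomal RNA, read 11.21 and 11.44 on polysomes and 12.25 and 12.59 in total RNA, a difference of -1.09 ± 0.18. REX4 (-1.48), RSA4 (-1.46), an assembly factor of the large subunit, and TIF6 (-0.78), which keeps subunits apart, fell too. The first total RNA array was below the second for REX4 (8.68 and 9.32) and RSA4 (10.35 and 11.17), and with 1 array left out the list had 7 to 46 genes called lower. In starved msn5 cells 3 of these 156 genes were higher and 20 lower, where 12.1% and 9.35% of all genes were, with a median of -0.27. In fed cells 1 was higher and 0 lower (all genes: 4.93% and 7.62%), with a median of -0.01. In starved mtr10 cells 14 were higher and 13 lower, both below the shares of all genes there (23.5% and 17.5%), with a median of 0.06. Among 36 genes of RNA polymerases I and III 4 rose and 3 fell (11.1% and 8.33%, against 14.2% and 9.18% of all genes), with a median of 0.01. Those that fell were RPA14 (-1.26), RPC34 (-1.02) and RRN5 (-1.17). The RRN5 difference was -0.79 and not called without the second polysome array.

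Of 127 cytosolic ribosomal protein genes 0 rose and 6 fell (4.72%, against 9.18% of all genes), with a median of -0.08. RPP2A, an acidic protein of the ribosomal stalk, read 12.67 and 12.53 on polysomes and 13.53 and 13.63 in total RNA, a difference of -0.98 ± 0.16. RPL6B (-0.70), RPL22B (-0.63) and RPL15A (-0.32) followed, and for such duplicated genes the array may not separate the copies. The RPL22B difference was -0.31 without the first polysome array and -0.94 without the second, and its call was lost without the first polysome or the second total RNA array (-0.49). That of RPL15A was lost without either polysome array or the first total RNA array, and 2 to 5 genes of the list were lower with 1 array left out. Of 79 mitochondrial ribosomal protein genes 10 rose and 11 fell (12.7% and 13.9%, against 14.2% and 9.18% of all genes). MRPS16 was at 0.79, and MRPL11 (-0.57), EHD3 (-0.50) and MRPL35 (-0.43) were below 0. After cyclic loess 4 of the 79 were higher and 13 lower, and with 1 array left out 4 to 8 were higher and 5 to 11 lower. In starved msn5 cells the counts were 2 and 18 of 79, where 12.1% and 9.35% of all genes were called. In starved mtr10 cells they were 4 and 35 (all genes: 23.5% and 17.5%).

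Of 45 translation factor genes 3 rose and 1 fell (6.67% and 2.22%, against 14.2% and 9.18% of all genes). CAM1, a gamma subunit of the elongation factor eEF1B, read 11.94 and 11.60 on polysomes and 12.82 and 12.72 in total RNA, a difference of -1.0015 ± 0.15. TIF4632, an eIF4G scaffold, rose by 0.71 ± 0.19, TIF11 (eIF1A) by 0.54 and the release factor gene SUP35 by 0.32. None of these 3 increases kept its call without the second total RNA array (0.65, 0.50 and 0.35). TIF11 (0.42) and SUP35 (0.19) also lost it without the second polysome array, and SUP35 without the first total RNA array (0.29) and after cyclic loess. Of 22 aminoacyl-tRNA synthetase genes 1 was called, ARC1, a cofactor of 2 synthetases (0.39 ± 0.08), although 20 of the 22 values were above 0. SES1 (0.22) did not pass the test. Of 42 genes of tRNA processing and trafficking 3 rose and 4 fell (7.14% and 9.52%, the latter close to that of all genes). RPR2, POP3 (-0.91) and TRM5 (-0.61) fell, and CEX1, which meets tRNA at the cytoplasmic face of the pore, rose (0.34 ± 0.10). Calls were lost without the second polysome array for POP3 (-0.76), and without the first polysome or second total RNA array for TRM5 (-0.53 and -0.42) and CEX1 (0.30 and 0.26). Of 42 genes of mRNA decay and export 10 rose (23.8%), NOT5 (0.38) and LSM4 (0.57) among them, and 4 fell (9.52%), led by DHH1 and EDC1. NOT5 (0.27) and LSM4 (0.42) lost their call without the second total RNA array, and 0 to 6 genes of this list were higher with 1 array left out.

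Of 23 amino acid permease genes 0 rose and 4 fell (17.4%, against 9.18% of all genes), the median was -0.23, and 21 of 23 values were below 0. AGP1, a broad permease, read 12.53 and 11.92 on polysomes and 12.84 and 12.85 in total RNA, a difference of -0.61 ± 0.18. AGP2 (-0.62), GNP1 (-0.60) and the lysine permease LYP1 (-0.48) fell by like amounts. In fed cells the permease median was -0.22 with 0 calls either way. With 1 array left out 1 to 3 permease genes were called lower. AGP1 was at -0.31 without the second polysome array, and lost its call without that array or either total RNA array. The AGP2 call was lost without the second polysome (-0.56) or first total RNA array (-0.50), and that of GNP1 without any array but the first total RNA array (-0.48 to -0.62).

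Among 74 other plasma membrane transporters 1 rose and 9 fell (12.2%, against 9.18% of all genes). PHO87 (-0.96), QDR3 (-0.75) and the drug pump PDR5 (-0.57) were among the latter. Of 62 cell wall and secreted protein genes 0 rose and 5 fell (8.06%, below the 9.18% of all genes). Those 5 included PLB3 (-0.99), TIR2 (-0.92) and FLO11 (-0.75). FLO11 was at -0.43 without the second polysome array and -0.58 without the first total RNA array, and called in neither. PDR5 lost its call without the first total RNA array (-0.47). With 1 array left out 3 to 8 transporter and 2 to 6 cell wall genes were lower. Of 22 subtelomeric PAU and COS genes 0 rose and 7 fell (31.8%), including PAU5 (-0.99 ± 0.10), PAU7 (-0.90) and PAU9 (-0.63), families whose members the probe sets may not tell apart. With the mean of its probe sets PAU5 was at -0.70, still called. In fed cells 8 of those 22 were called lower, where 7.62% of all genes were. Of 41 phospholipid and fatty acid genes 1 rose and 7 fell (2.44% and 17.1%), with OPI3 (-0.56), SCT1 (-0.53) and ELO3 (-0.44), of which SCT1 was at -0.35 and not called without the second polysome array. Of 27 genes of autophagy and vacuolar proteases 5 rose and 5 fell (18.5% each way, against 14.2% and 9.18% of all genes). CPS1, a vacuolar carboxypeptidase, read 9.65 and 9.59 on polysomes and 11.54 and 11.65 in total RNA (-1.98 ± 0.32). ATG5 was at -0.92 and ATG3, the enzyme that lipidates Atg8, at 0.58. Of 31 cyclin and G1/S genes 5 rose and 2 fell (16.1% and 6.45%, near the shares of all genes), with RFA1 (0.63) and the thymidylate synthase gene CDC21 (0.74) opposite to WHI5 and SWI4.

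Genes of amino acid biosynthesis are the textbook targets of Gcn4. Of 8 measured arginine genes 0 were called, with a median of -0.01 and values from -0.27 to 0.03. ARG8, at 13.08 and 12.89 on polysomes and 13.32 and 13.19 in total RNA, and ARG3 did not pass the test (-0.27 and -0.14). Of 6 histidine genes 1 fell (16.7%, against 9.18% of all genes), HIS2 (-0.39 ± 0.12), and HIS6 (0.24) was not called. Of 11 branched-chain genes 2 fell (18.2%), LEU9 (-0.35) and ILV6 (-0.30), and of 7 lysine genes 0 were called. These calls were lost in at least 3 of the 4 fits with 1 array left out.

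The same polysome minus total RNA difference was measured in 3 further pairs of groups that share no array with the starved wild-type pair. In starved msn5 cells 644 genes were called higher (12.1%) and 499 lower (9.35%), in starved mtr10 cells 1252 (23.5%) and 934 (17.5%), and in fed wild-type cells 263 (4.93%) and 407 (7.62%). Of the 124 genes lower by 2-fold or more in starved wild-type, 85 were called lower in msn5, 105 in mtr10 and 33 in fed wild-type, and 0 were called higher in any of the 3. Of the 757 higher genes, 426 were called higher in msn5, 497 in mtr10 and 180 in fed cells, and 0, 4 and 1 were called lower. Over all genes the differences of starved wild-type correlated with those of msn5 at 0.83, of mtr10 at 0.75 and of fed wild-type at 0.57, a description across genes, which are not independent and share the handling of each pool.

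HAC1 was low in both starved mutants, at -3.36 in msn5 and -5.22 in mtr10. SRO9 was at -2.70 and -2.56, CPD1 at -2.997 and -3.183, and SCS3 at -2.41 and -3.29 in msn5 and mtr10. All 15 of the lowest wild-type genes were called lower in mtr10, and 14 in msn5, the exception being ATG15 (-0.85, adjusted p = 0.30). Among the 15 highest genes 13 were called higher in each mutant. HSK3 and CYC7 did not pass the test in either.

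**Figure D4:**
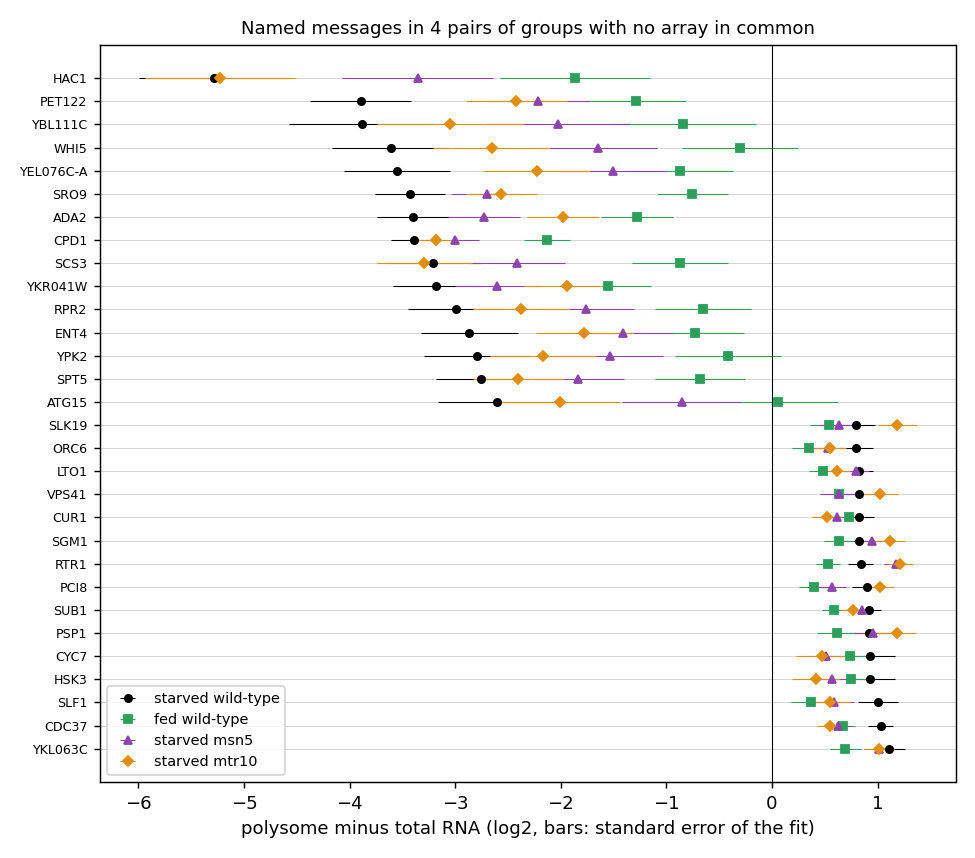
Polysome minus total RNA differences (log2, bars: standard error of the fit) of the 15 lowest and 15 highest genes in starved wild-type, and of the same genes in fed wild-type, starved msn5 and starved mtr10. The genes were chosen for large differences in starved wild-type, which favours large values there. HAC1 is at -5.28, -3.36 and -5.22 in starved wild-type, msn5 and mtr10, against -1.86 in fed cells. Its starved minus fed change did not pass limma's test (adjusted p = 0.104). The highest genes are above 0 in all 4 groups.

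Between strains the starved difference itself was tested. For msn5 minus wild-type 0 of 5338 genes passed limma's test, with 181 at an unadjusted p under 0.05. For mtr10 minus wild-type 9 were called higher and 30 lower (0.731% in all). Among the named genes, RPP2A was further off polysomes in mtr10 (-2.61 against -0.98 in wild-type, a difference of -1.63 ± 0.22, adjusted p = 0.0015), and so was MER1, a meiotic splicing factor (-2.44 against -0.81). HXT14, YOL155W-A and HIS6 were also lower in mtr10 relative to wild-type. Of the 124 genes lower by 2-fold or more, 0 differed between mtr10 and wild-type by this test. MSN5 and MTR10 themselves were present in wild-type, with MSN5 at 11.99 and 11.91 on polysomes and 11.93 and 11.53 in total RNA, and MTR10 at 10.75 and 10.48 and at 10.49 and 10.50, neither called.

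Starved and fed wild-type cells were compared by the difference of their polysome minus total RNA differences. It was called higher after starvation for 29 genes (0.543%) and lower for 17 (0.318%), with 791 genes at an unadjusted p under 0.05. These counts depended on single arrays: without the second fed polysome array, or without the second starved total RNA array, 0 were higher and 0 lower, and with a fit on these groups alone 0 and 1. The spread of 2 arrays in each of 4 groups, with a median standard error of 0.19, limits this comparison.

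SRO9 had the smallest adjusted p among the named decreases. It read 11.25 and 11.98 on fed polysomes and 12.42 and 12.32 in fed total RNA, so that its difference went from -0.75 to -3.43, a change of -2.67 ± 0.47 (adjusted p = 0.0098). WHI5 read 8.22 and 9.40 on fed polysomes against 9.225 and 9.003 in fed total RNA, and its change was -3.31 ± 0.78. ADA2 (-2.12), GPI19 of the GPI anchor pathway (-2.21), YAR066W (-2.07), REX4 (-1.38), the porin gene POR2 (-1.10) and OPY2 (-1.01) completed the 8 largest decreases. GPI19 was near its total level in fed cells (-0.37) and lower by a fold of 5.999 after starvation. HAC1 and PET122 had larger or similar estimates (-3.42 and -2.60) but did not pass the test (adjusted p = 0.104 and 0.062). CAM1 was also called, at -0.95.

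In the opposite direction lay messages that were low on fed polysomes and closer to their total level after starvation. SPS4, a sporulation gene, read 7.51 and 7.43 on fed polysomes and 8.23 and 8.25 in fed total RNA. After starvation it read 8.99 and 8.64 on polysomes and 8.64 and 8.52 in total RNA, so that its difference went from -0.77 to 0.23, a change of 1.00 ± 0.17 (adjusted p = 0.0098). LDS1, a gene of the spore wall, went from -1.25 to 0.05. HXT14, a member of the hexose transporter family, went from -2.14 to -0.72, and MER1 from -1.82 to -0.81. PAU21, YOL155W-A, YCR108C and YIL060W had changes from 1.07 to 1.21, and the probe set of PAU21 matches several transcripts. Of the list members named above, CEX1 was called as well, at 0.58.

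Gene length bears on how many ribosomes a message can hold. Length was the span of the gene in the RefSeq assembly R64, nearly always the coding length (5178 of 5338 are multiples of 3). In 10 bins of 533 or 534 genes the starved median was 0.06 in the shortest bin (78 to 474 bases), 0.07 in the longest (2841 to 14733 bases), and between -0.01 and 0.10 in the others. The longest bin minus the shortest was 0.02, with an SD of 0.10 over the 4 pairings of a polysome with a total RNA array. In fed cells it was -0.24, from 0.11 to -0.14. In starved msn5 it was 0.19 and in starved mtr10 0.67, where the shortest bin had a median of -0.31 and the longest 0.36. No test of these differences was made. The calls of lower genes were less frequent in the longest bin (4.31%) than in the shortest (11.4%), and 4 against 21 genes there were lower by 2-fold or more. Calls of higher genes were less frequent there too, at 7.49% in the longest bin against 14.04% in the shortest. Fewer calls among the longest genes were therefore not particular to the lower side.

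**Figure D5:**
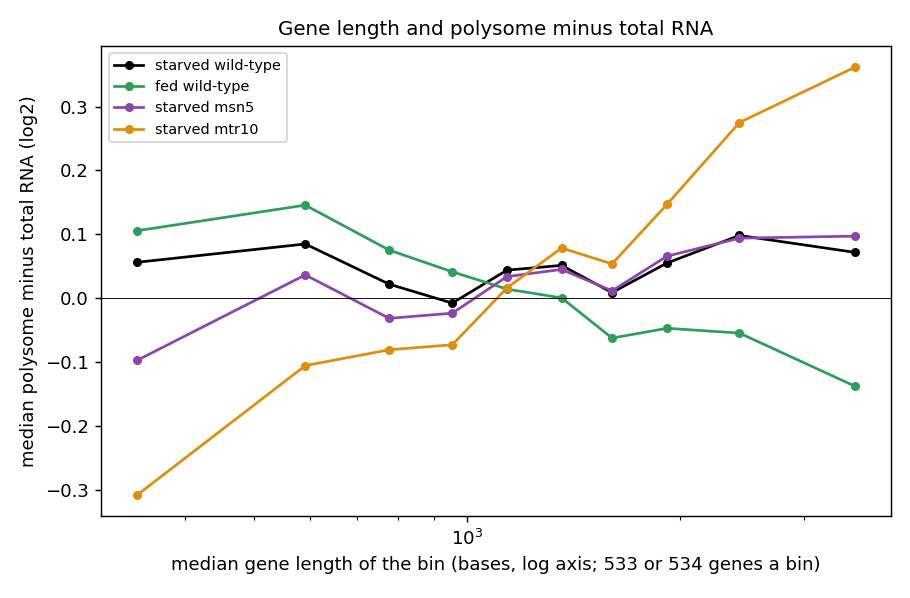
Median polysome minus total RNA difference (log2) against the median gene length of 10 bins of 533 or 534 genes (log axis) in 4 pairs of groups. Starved wild-type stays between -0.01 and 0.10, fed wild-type goes from 0.11 to -0.14 and starved mtr10 goes from -0.31 to 0.36.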

How the data were processed

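RNA was measured on 36 Affymetrix yeast arrays. The main values, as deposited, are on the log2 scale and were made by the authors with RMA and affy per the submitters' processing notes; versions and genome build were not stated there. A second deposited matrix holds MAS5 signal intensity and a detection p-value per probe set, from the authors. In it 2 total RNA columns of wild-type matched arrays of the other condition, so it served as an alternative. Of 5684 probe sets, 5379 had 1 gene, 12 symbols were updated through RefSeq, and the brightest probe set was kept, which left 5338 genes. Means of 18 groups were fitted to 36 arrays with limma 3.58.1 in R 4.3.3 (18 residual and 3.92 prior degrees of freedom, two-sided, Benjamini-Hochberg). The fit was tested on simulated data. Samples were grouped by their labels, and 2 arrays a group limit precision. A gene was called Present on an array where its detection p-value was under 0.05. Named genes are the 15 largest called differences each way with arrays that do not overlap, 5 chosen genes, for each described list the 4 genes of smallest p at most, and the 8 largest starved minus fed differences each way. The members and the 46 gene lists (1 without a measured gene) were chosen with earlier results of these data known.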

Additional observations from a re-analysis of the deposited data

Results flagged for a closer look

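The starved minus fed difference of polysome minus total RNA was tested gene by gene, and the named genes that passed differ between the conditions. Lower after starvation were WHI5 (-3.31), SRO9 (-2.67), GPI19 (-2.21), ADA2 (-2.12), YAR066W (-2.07), REX4 (-1.38), POR2 (-1.10), OPY2 (-1.01) and CAM1 (-0.95). Higher were HXT14 (1.42), LDS1 (1.30), PAU21 (1.21), YOL155W-A (1.16), YCR108C (1.14), YIL060W (1.07), MER1 (1.01), SPS4 (1.00) and CEX1 (0.58). Adjusted p-values ran from 0.0098 to 0.049, and all 16 of the largest lost their call without the second fed polysome array, without either fed total RNA array or without the second starved total RNA array.

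The mtr10 minus wild-type difference in starved cells passed the test for RPP2A (-1.63), HXT14 (-1.79), MER1 (-1.63), YOL155W-A (-1.24) and HIS6 (-0.74), all lower on polysomes in mtr10 relative to total RNA.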

How the results depend on the processing

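Polysome minus total RNA in starved wild-type: of 108 named genes called, 108 kept their call and direction with each array centred on its median, with the mean of the probe sets, with trend and robust estimation and with the replicate block, and 107 after cyclic loess and with the 12 wild-type arrays alone; 90 to 101 did so with 1 array left out. In MAS5 signals 75 did with the mismatched columns dropped (32 lost their call and 1 reversed) and 67 with all columns (25 lost their call and 16 reversed). With only the 4 arrays of the comparison 23 did. The counts higher and lower were then 8 and 80, with 56 lower and 1 higher by 2-fold or more. The labels do not say whether polysome and total RNA of 1 replicate number share a culture, and the main fit does not pair them. Across genes, the replicate differences in polysome and in total RNA correlated at 0.62 in starved and 0.48 in fed cells. With 2 replicate numbers this does not settle the pairing. With the replicate block, fitted on these groups alone, 878 genes were higher and 701 lower, against 757 and 490 in the main fit. Of the 701, 127 were lower by 2-fold or more. The starved minus fed counts were then 0 and 0, against 29 and 17. With 1 array left out the counts were 277 to 584 higher, 267 to 452 lower, 91 to 157 lower by 2-fold or more and 2 to 7 higher by 2-fold or more. Cyclic loess gave 495 higher. Without the dimmest genes (a share of 0.25), where fewer genes were tested, 310 were lower and 35 lower by 2-fold or more. Centring on the median left 1 gene higher by 2-fold or more.

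MAS5 signals after dropping the mismatched columns, which leaves 1 starved total RNA column, gave 260 higher, 421 lower, and 121 lower and 14 higher by 2-fold or more; YPT1 reversed to -0.0850 and GCN4 to -0.32, and CPA1 was called at -0.44 (adjusted p = 0.026). Without the mismatched columns ATP16 was at 0.37, PRE1 at 0.25 and SCL1 at 0.18, weaker than in the RMA values, and CDC21 was at 0.92, stronger. With all MAS5 columns as named, 2 of which match arrays of the other condition, 463 were higher and 832 lower, and 289 lower and 48 higher by 2-fold or more. Under that setting values reversed to -0.44 for GCN4 (called, adjusted p = 0.045), 0.13 for CPA1, -0.15 for MTR10, -0.14 for ATP16, -0.21 for SCL1, -0.12 for PRE1, -0.41 for YPT1, -0.10 for RET2, -0.32 for SBA1, -0.65 for CPR6, -0.0559 for NSP1, -0.21 for TIF11, -0.41 for SUP35, -0.38 for ARC1, -0.10 for RFA1, -0.0447 for CDC21, 0.14 for AGP2, 0.36 for FLO11 and 0.25 for PAU5. GCN4 was -0.0011 with centred arrays, and with 1 array left out CPA1 ranged from -0.0899 to 0.0789 and MTR10 from -0.0123 to 0.2623, none of these called.

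The starved minus fed counts higher and lower were 29 and 17. They were 0 and 1 with only these groups, 12 and 2 in MAS5 after that removal, 1219 and 1472 with all MAS5 columns, 19 and 40 after cyclic loess, 10 and 9 without the dimmest genes, 14 higher with trend and robust estimation, 49 lower with the wild-type arrays alone, and 0 to 25 higher and 0 to 20 lower with 1 array left out. The length comparison was 0.06 in MAS5 after that removal, against 0.02. Apart from the mismatched columns and smaller sets tested, the cause of these shifts was not tested.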
